A study of Mus musculus with 24 samples.

Results

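The 8 genes described here are imprinted genes with roles in growth: H19, Igf2, Meg3, Rian, Mirg, Dlk1, Cdkn1c and Peg3. They are 8 of the 54532 genes counted in each of 24 mouse muscle samples, and all 8 were present in the count tables under their Ensembl identifiers. They were chosen by name with earlier results for their CPM, read counts scaled to the size of each library, across the 6 groups of samples already known. Their values are therefore a description of these samples, the adjusted p-values are the rows of these genes in fits made over all genes, and nothing below counts as independent evidence for a direction.

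The study sequenced total RNA of the left gastrocnemius, the large calf muscle, in a mouse model of activity-induced muscle pain. It asked how muscle gene expression differs between pain-free animals, sedentary animals with muscle pain and active animals with muscle pain, in each sex. All samples were from wild-type (WT) C57/BL6 mice and are labelled with a time of 24 h, and the sources used here give no ages. There were 4 samples in each of 6 groups. Female and male controls were sedentary and had 2 injections of saline at pH 7.2 into the muscle, 5 days apart. Female and male sedentary pain animals had 2 injections at pH 5.0 with the same spacing, and before the second the muscle was made to contract electrically for 6 min. Female and male active pain animals first had running wheels for 8 weeks and then went through the same pain procedure. Every pain group had acid and contraction together, and no active animals without pain were analysed here, so the effects of acid, of contraction and of running alone cannot be told apart. The labels number the 4 samples of a group as replicates without naming animals, so the p-values measure the spread between these samples, which may in part be technical.

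Imprinted genes are transcribed mainly from the copy inherited from 1 parent, and many of them act on growth before birth. Maternally expressed H19 is a long noncoding RNA that falls in most tissues after birth but is retained in skeletal muscle; it lies beside paternally expressed Igf2, which encodes a secreted growth factor of muscle development and repair, and both genes use the same enhancers. A second imprinted cluster holds paternally expressed Dlk1, which encodes a membrane protein related to Notch ligands that holds back fat cell formation, and the maternally expressed noncoding RNAs Meg3, Rian and Mirg, whose transcripts carry microRNAs or small nucleolar RNAs. Cdkn1c, expressed from the maternal copy, encodes an inhibitor of cyclin-dependent kinases that holds cells out of the cell cycle. Peg3, expressed from the paternal copy, encodes a zinc finger protein found in muscle stem cells among other cells. Read counts of whole genes do not tell the parental copies apart, so imprinting itself was not measured here.

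On GRCm38, 4 of the genes lie on chromosome 7 and 4 on chromosome 12. H19 (ENSMUSG00000000031) is on the minus strand at chr7:142575529-142578143, and 72622 bases separate it from Igf2 (ENSMUSG00000048583) at chr7:142650766-142666816 on the same strand. Cdkn1c (ENSMUSG00000037664) lies 791522 bases past Igf2 at chr7:143458339-143461050, and Peg3 (ENSMUSG00000002265) lies far from the others at chr7:6703892-6730431, both also on the minus strand. On the plus strand of chromosome 12 the order is Dlk1 (ENSMUSG00000040856, chr12:109452823-109463336), Meg3 (ENSMUSG00000021268, chr12:109541001-109571726), Rian (ENSMUSG00000097451, chr12:109603940-109661716) and Mirg (ENSMUSG00000097391, chr12:109729764-109749460), with gaps of 77664, 32213 and 68047 bases.

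H19 RNA is the host of a microRNA, miR-675, whose 2 mature forms are shown because H19 is the member on which the results below turn. The RefSeq entry (GRCm38.p6) places the hairpin of 84 bases on the minus strand at chr7:142577064-142577147, within the exons of H19; it lies whole in 3 of the 7 H19 transcripts of GENCODE M21, for example at bases 997 to 1080 of the 2286 bases of H19-202. Capitals mark the seed, bases 2 to 8, with which a microRNA pairs to its targets. Among 1738 mature mouse microRNAs of the RefSeq table, each of these seeds was found in 1, so the 2 forms share no seed with each other or with another entry.
miR-675-5p: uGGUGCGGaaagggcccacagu
miR-675-3p: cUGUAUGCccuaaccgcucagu
The 5p form covers chr7:142577112-142577133 and the 3p form chr7:142577078-142577099. The microRNA itself was not measured by these libraries. Of 53 microRNA genes of the H19, Igf2 and Dlk1-Dio3 loci in the count tables, 4 had any count, with 5 counts over all 24 samples, and Mir675 had 0.

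Promoter windows running from 250 bases before to 50 bases after a gene start were taken from RefSeq (GRCm38.p6); 6 of the 8 genes matched, with 10 windows, and H19 and Cdkn1c were not among them. The letters TGCCGC, the core recognised by the imprint-keeping factor ZFP57, were searched on both strands, since most of the members lie in 2 imprinted clusters. They occurred in 2 of the 10 windows, 1 of Igf2 and 1 of Meg3, and in 11.6% of all 32851 windows of this length. Capitals below mark the match, which in both windows is on the opposite strand and so reads GCGGCA.
Igf2, chr7:142661222-142661521, minus strand: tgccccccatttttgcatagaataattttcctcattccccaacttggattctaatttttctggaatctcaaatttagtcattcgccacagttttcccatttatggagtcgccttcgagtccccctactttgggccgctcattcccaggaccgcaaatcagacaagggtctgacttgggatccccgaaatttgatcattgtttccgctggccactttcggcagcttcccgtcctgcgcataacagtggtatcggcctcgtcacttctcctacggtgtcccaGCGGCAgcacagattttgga
Meg3, chr12:109540746-109541045, plus strand: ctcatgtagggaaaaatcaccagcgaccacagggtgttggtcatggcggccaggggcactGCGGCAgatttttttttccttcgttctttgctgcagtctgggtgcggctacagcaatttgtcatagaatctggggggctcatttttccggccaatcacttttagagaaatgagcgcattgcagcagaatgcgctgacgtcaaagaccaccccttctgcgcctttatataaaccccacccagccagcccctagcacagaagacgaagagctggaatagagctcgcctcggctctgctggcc
These windows hold 14 and 13 CG pairs, against a median of 7 over all windows. Of 3 other motifs searched on both strands, the E-box letters CAGCTG, bound by the muscle factors of the MyoD family, were in none of the 10 windows and in 16.3% of all windows. TATAAA was found 2 times in the Meg3 window shown, once on each strand with the matches overlapping, and in 13.6% of all windows. GGGCGG was found in 2 further Igf2 windows and in 35.7% of all. A match or its absence describes these letters in these windows and says nothing of binding.

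The samples held between 17612139 and 34039699 counts each, and the factors of the trimmed mean of M-values (TMM) scaling lay between 0.89 and 1.22, highest in female sedentary pain replicates 3 and 4 and male active pain replicate 2. All 11 muscle fibre markers searched were detected in every group. Macrophage markers moved with the pain procedure: the summed CPM of 9 markers was between 69.2 and 157 in female controls and 370, 587, 3090 and 3880 in female sedentary pain replicates 1 to 4. Replicates 3 and 4 thus stood apart; they are also the 2 of that group with library numbers of 25 or higher. These values are set beside the results they touch.

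Per kilobase of exon, H19 was far above the other 7 genes in every group. Its mean was 400 CPM per kb in female controls, where it ranked 70 among 54409 genes, and 97.6 CPM per kb in male active pain samples, where it ranked 359. Cdkn1c came next, between 3.74 CPM per kb in female sedentary pain and 8.75 CPM per kb in male controls, and in all 6 groups its samples overlapped neither those of H19 above it nor those of the gene below it. A gene model on the opposite strand, with 0 to 4 counts a sample, shares 30.7% of the Cdkn1c exon bases. The strand setting of the counting is not given, so the Cdkn1c level may be too low. The other 6 genes had group means between 0.0226 CPM per kb (Mirg in male sedentary pain) and 0.603 CPM per kb (Peg3 in male controls). Among these, neighbours in the order often overlapped: in female controls Peg3 (0.555 CPM per kb) overlapped Rian (0.401), and Dlk1 (0.174) overlapped Igf2 (0.131), while Rian and Meg3 (0.306) did not overlap. Igf2 was among the 2 lowest genes in all 6 groups, with 1 to 35 counts per sample; 62.8% of its exon bases are shared with another gene model, so its level may be too low.

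**Figure D1:**
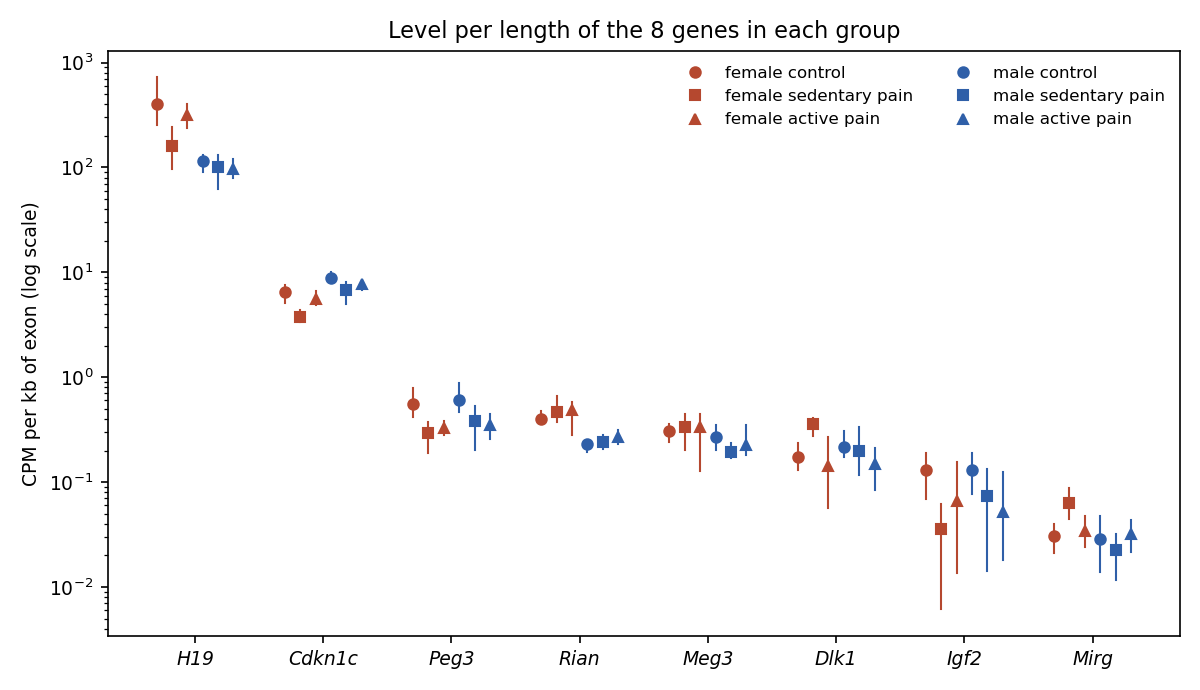
Level per length of the 8 genes in the 6 groups: the y axis is CPM per kb of exon on a log scale, points are group means and lines run from the lowest to the highest of 4 samples. H19 lies highest in every group, Cdkn1c second, and Mirg and Igf2 at the bottom.

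In the female samples, the pain procedure in sedentary animals went with lower H19, Cdkn1c and Peg3. Of the 7 members that passed the filter on low counts, these 3 passed the threshold against controls (adjusted p under 0.05 in edgeR's quasi-likelihood F test, Benjamini-Hochberg over all genes tested), all lower, while 33.5% of all genes tested were called in this comparison and 13.9% were called lower. A count of 3 in 7 beside such shares says little about the members as a list; the values of each gene follow. Of all calls 58.5% were higher in sedentary pain with TMM scaling and 82.9% with scaling to library size alone, which moved the median of all genes from -0.02 to 0.17 on the log2 scale. The median log2 fold change of the 7 was -0.83, beside -0.02 over all genes tested.

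Among the noncoding RNAs, H19 stood at 1780, 878, 619 and 659 CPM in female control replicates 1 to 4, and at 598, 327, 399 and 239 CPM in female sedentary pain replicates 1 to 4. The groups did not overlap, although the highest pain sample and the lowest control sample lay close together, and control replicate 1 stood well above the rest. The means were 984 ± 544 and 391 ± 153 CPM (SD, n = 4 each), a 2.54-fold lower level (log2 fold change -1.35 ± 0.37 SE, adjusted p = 0.0193). Without female control replicate 1 the log2 fold change was -0.89 with an adjusted p of 0.0534, and without female sedentary pain replicate 4 it was -1.16 with an adjusted p of 0.0576; with 1 surrogate variable it was -0.31. Over 23 alternatives the adjusted p of this H19 difference ran from 0.00199 to 0.866, and 20 of them kept the call.

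Meg3, Rian and Mirg, the noncoding RNAs of chromosome 12, did not follow H19 in this comparison. Meg3 was 5.54 CPM in female controls and 6.09 CPM in female sedentary pain samples on average (log2 fold change 0.11 ± 0.35 SE), and Rian was 7.32 ± 0.934 and 8.46 ± 2.41 CPM (SD, n = 4 each; log2 fold change 0.19 ± 0.24 SE). The ranges of both genes overlapped between the groups. Mirg had only 2 to 18 counts in any sample, did not pass the low-count filter and was not tested. Its mean was 0.224 CPM in female controls and 0.46 CPM in female sedentary pain samples, and the 2 sets of values did not overlap; in the fit with no low-count filter its log2 fold change was 0.99 with an adjusted p of 0.132.

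Of the paternally expressed genes for secreted or membrane factors, Igf2 was lower and Dlk1 higher in sedentary pain than in control females on average, and neither passed the threshold. Igf2 had 25, 18, 10 and 25 counts in the female controls and 8, 2, 11 and 1 in the sedentary pain samples. The means were 0.749 and 0.203 CPM (log2 fold change -1.83 ± 0.69 SE, adjusted p = 0.0588; -0.11 with 1 surrogate variable). The groups did not overlap with TMM scaling, but with library size alone the highest sedentary pain sample, at 0.435 CPM, lay above the lowest control, at 0.416 CPM. The gene model that shares 62.8% of the Igf2 exon bases, Gm49394, lies on the same strand and has 0 counts in every sample, so how reads of these bases were assigned is uncertain and the Igf2 values may be too low. Dlk1 was 1.34, 0.883, 0.742 and 0.978 CPM in the controls and 1.55, 1.93, 2.3 and 2.33 CPM in the sedentary pain samples, from 19 to 71 counts. All 4 sedentary pain samples lay above all 4 controls (log2 fold change 1.02 ± 0.39 SE, adjusted p = 0.0586). DESeq2 called both genes. Igf2 passed the low-count filter, with its minimum count of 10, largely through the controls, where it was high. Its DESeq2 call therefore adds no support for the direction. Over 22 alternatives each, the adjusted p ran from 0.0364 to 0.991 for Igf2 and from 0.0286 to 0.74 for Dlk1.

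Cdkn1c, the cell cycle inhibitor, was 12.4, 10.3, 15.3 and 15.4 CPM in female controls and 8.85, 6.95, 7.75 and 6.92 CPM in female sedentary pain samples. Every sedentary pain sample was below every control. The means were 13.3 ± 2.44 and 7.62 ± 0.906 CPM (SD, n = 4 each), a 1.77-fold lower level (log2 fold change -0.83 ± 0.16 SE, adjusted p = 0.00521). Of 23 alternatives, 22 kept the call, and only the fit with 1 surrogate variable lost it (log2 fold change -0.81, adjusted p = 0.124; range over the alternatives 4.37e-05 to 0.124).

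Peg3, the zinc finger gene, was 7.28, 6.1, 10.6 and 5.59 CPM in female controls and 3.93, 4.26, 4.99 and 2.54 CPM in female sedentary pain samples. The 2 ranges did not overlap with TMM scaling, but with library size alone they did, at 3.07 to 6.09 CPM in sedentary pain and 5.63 to 11.3 CPM in controls. The means were 7.4 ± 2.26 and 3.93 ± 1.03 CPM (SD, n = 4 each), a 1.91-fold lower level (log2 fold change -0.93 ± 0.25 SE, adjusted p = 0.0179). The call was lost without female sedentary pain replicate 4 (adjusted p = 0.0504), with scaling to library size alone (0.0559) and with 1 surrogate variable (0.388), within a range of 0.00314 to 0.388 over 23 alternatives.

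Female sedentary pain replicates 3 and 4, the 2 libraries with the most macrophage marker RNA, can be set apart by library number, with 2 samples a group in each set and no test. In the libraries with numbers of 20 or lower, which hold replicates 1 and 2 of both groups, the sedentary pain difference was -1.50 for H19, -0.52 for Cdkn1c and -0.69 for Peg3 on the log2 scale. In those with numbers of 25 or higher it was -1.05, -1.06 and -1.10. The groups did not overlap in these 3 genes with TMM scaling. The direction in each set was therefore fixed in advance and is no support, and only the sizes differ.

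In a bulk sample, fewer cells of a type and less RNA per cell cannot be told apart, and several marker lists moved with the same comparison. In female sedentary pain samples 9 of 9 macrophage markers, 5 of 6 neutrophil markers and 5 of 5 tested proliferation markers rose, with a median log2 fold change of 4.48 for the macrophage list. Of 8 adipocyte markers 7 fell, and their summed CPM was 496, 374, 4120 and 2400 in the 4 female controls against 149 to 621 in the sedentary pain samples. In the muscle fibre list 1 marker rose and 2 fell. Summed muscle fibre CPM was 146000 to 220000 in controls and 107000 to 198000 in sedentary pain samples, with medians of 179000 and 140000. In the satellite cell and myoblast list 2 of 10 tested markers rose, Myog (log2 fold change 1.36) and Itga7 (0.47), and none fell; 5 of the 10 lay above 0 and 5 below, with a median of -0.12. All 3 tested lymphocyte markers rose and 2 of 7 endothelial markers fell. Of 10 markers of fibro-adipogenic progenitors and fibroblasts 2 rose, Ly6a (2.78) and Col1a1 (1.09). Of 7 mural and smooth muscle markers Des rose (1.03), a gene that muscle fibres also use, while Myh11 (-1.12) and Rgs5 (-0.72) fell. The share of counts from mitochondrial genes was 8.59% to 11.02% in female controls and 2.75% to 8.22% in female sedentary pain samples, without overlap. No marker of these 10 lists was at 0 in a group, and the part of these cell types and of the mitochondrial share in the values of the 8 genes was not tested.

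**Figure D2:**
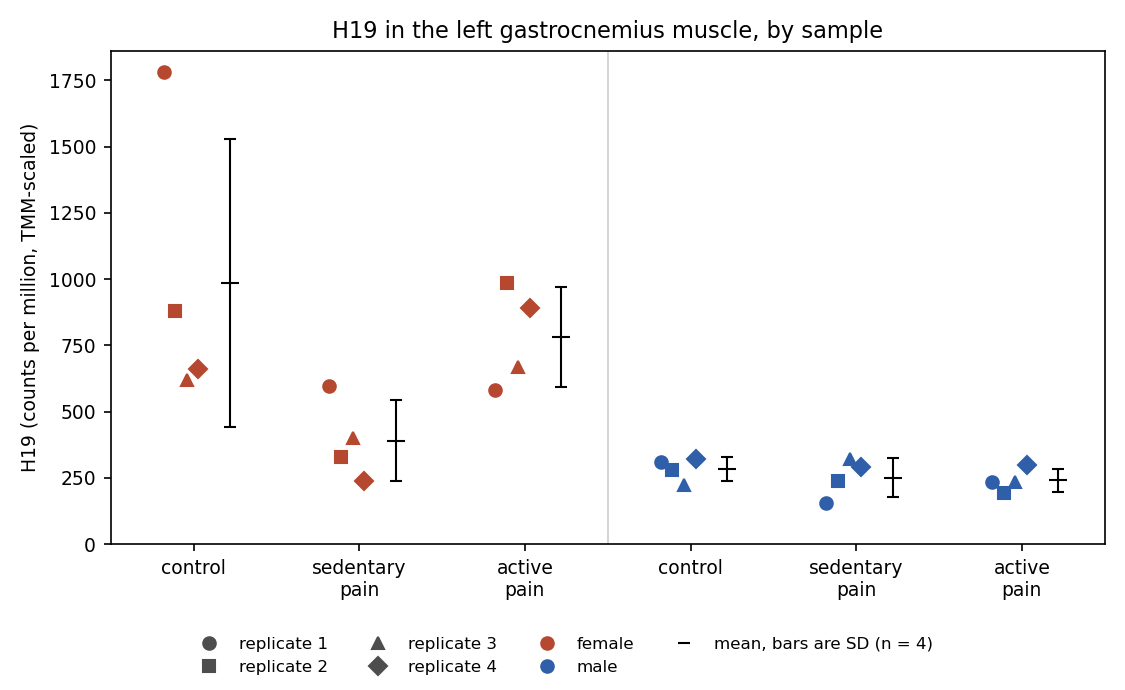
H19 in each of the 24 samples: the y axis is CPM scaled by TMM, the 6 groups run from female control to male active pain, marker shapes are replicate numbers, and black bars are the mean and SD of 4 samples. Female controls range from 619 to 1780 CPM, female sedentary pain samples from 239 to 598 CPM, and all 12 male samples lie at or below 323 CPM.

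In active females with pain, H19 was nearer to the controls than to the sedentary pain samples on average. No member passed the threshold against female controls; 0.0% of all genes did in edgeR's test. At an unadjusted p under 0.05 there was 1 member, Peg3, and 1020 genes in all, and DESeq2 called 0 members and 124 genes. H19 was 581, 985, 669 and 892 CPM in female active pain replicates 1 to 4 (mean 782 ± 189 SD), within the range of the controls apart from the lowest value (log2 fold change -0.33 ± 0.36 SE, adjusted p = 0.846). The medians were 781 CPM in active pain and 769 CPM in controls. On the log2 scale the difference was -0.73 in libraries with numbers of 20 or lower and 0.27 in those of 25 or higher, so its sign was not settled. Peg3 was 3.72, 5.09, 4.31 and 4.23 CPM, all below the lowest control (log2 fold change -0.77 ± 0.25 SE, adjusted p = 0.586). The Peg3 mean of 4.34 ± 0.562 CPM was thus close to that of the sedentary pain samples, from which it differed by a log2 fold change of 0.16 ± 0.25 SE (-0.03 with library size alone and -0.02 without female sedentary pain replicate 4). Marker lists moved with this comparison below the threshold: the 8 adipocyte markers all had log2 fold changes below 0 against controls (median -2.42; 7 with an unadjusted p under 0.05, 0 called by edgeR's test or DESeq2), and the 9 macrophage markers all lay above 0 (median 1.53; 6 with an unadjusted p under 0.05, 2 called by DESeq2). Neutrophil markers summed to 4.9 to 112 CPM in female active pain and 0.898 to 3.7 CPM in female controls. Proliferation markers summed to 2.45 to 7.08 CPM and 1.21 to 2.27 CPM in the same groups. The part of these marker lists in the member values was not tested.

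Between active and sedentary females with pain, Cdkn1c was higher and Dlk1 lower in the active samples. These were 2 of 7 members called, beside 11.9% of all genes tested. That share itself depended on single samples: 1730 genes were called, none without female sedentary pain replicate 4 or without active pain replicate 1, 2 or 4, 3 without sedentary pain replicate 3, and 4316 without sedentary pain replicate 1, and none when only the 2 groups were fitted. Cdkn1c was 13.6, 9.89, 11 and 11.1 CPM in the active samples, above all 4 sedentary pain samples (log2 fold change 0.59 ± 0.16 SE, adjusted p = 0.0403). Dlk1 was 1.52, 0.318, 0.847 and 0.547 CPM, below all 4 sedentary pain samples, though the highest active value lay next to the lowest sedentary one (log2 fold change -1.34 ± 0.39 SE, adjusted p = 0.0469). H19 was higher in the active samples by a log2 fold change of 1.02 ± 0.37 SE, with overlapping ranges and an adjusted p of 0.0833; 4 of 23 alternatives called it, DESeq2, the library-number covariate, all 24 samples in a single fit and the fit without female sedentary pain replicate 1, with a lowest adjusted p of 0.0263 and a highest of 0.962. Its log2 fold change ran from 0.23, with 1 surrogate variable, to 1.27.

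Both calls of that comparison stood near the threshold. The Cdkn1c call was lost in 13 of 23 alternatives and the Dlk1 call in 14 of 22, among them most fits that left out 1 sample, while the direction held in each. With library size alone the log2 fold change of Cdkn1c was 0.39. Macrophage markers differed here too, with 7 of 9 lower in the active samples, as were 4 of 5 tested proliferation markers, 2 of 3 tested lymphocyte markers (Cd4 and Nkg7) and 1 of 10 fibro-adipogenic progenitor and fibroblast markers, Ly6a (log2 fold change -1.79), while 1 of 7 mural markers, Rgs5, was higher (0.60). The mitochondrial share was 6.67% to 11.44% in the active and 2.75% to 8.22% in the sedentary samples. The part of these values in the differences was not tested. Because this comparison and the one against controls share the female sedentary pain samples, their values are not independent of each other.

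**Figure D3:**
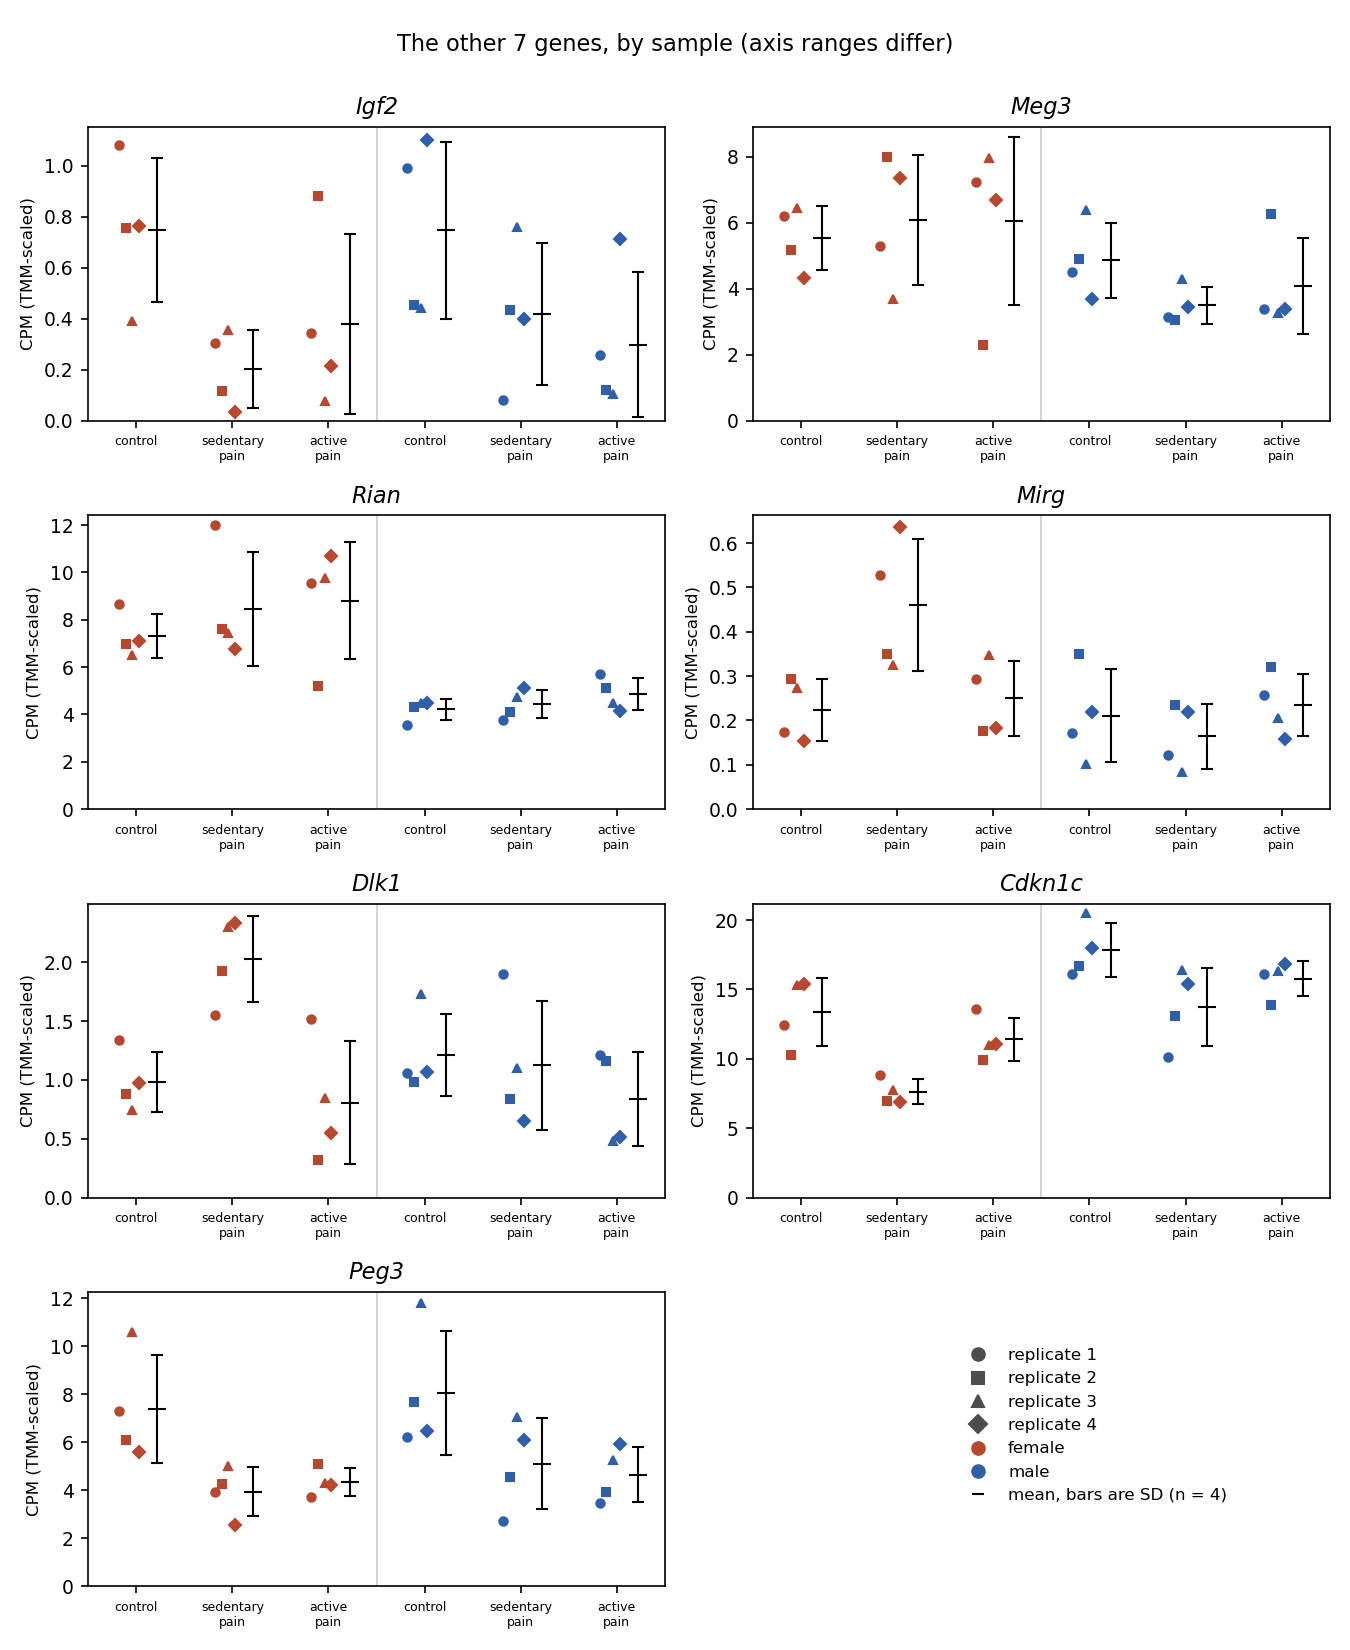
The other 7 genes in each of the 24 samples, 1 panel a gene: the y axis is CPM scaled by TMM with its own range in each panel, marker shapes are replicate numbers, and black bars are the mean and SD of 4 samples. In females, the sedentary pain samples are lowest for Cdkn1c and highest for Dlk1, and Rian is lower in the male groups.

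In males, none of the 7 members tested passed the threshold in any of the 3 comparisons between conditions, and 0.0% of all genes did in each by edgeR's test. The members with an unadjusted p under 0.05 were Cdkn1c for sedentary pain against control and Peg3 for active pain against control, with none for active against sedentary pain; DESeq2 called 0 members in each, and the counts over all genes at that unadjusted p were 1273, 1045 and 121, with 270, 127 and 0 genes called by DESeq2.

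H19 in male controls was 309, 280, 222 and 323 CPM, in male sedentary pain samples 154, 237, 322 and 292 CPM, and in male active pain samples 235, 194, 235 and 297 CPM. The 3 ranges overlapped almost wholly. The sedentary pain difference was a log2 fold change of -0.15 ± 0.22 SE (adjusted p = 0.715) and the active pain difference -0.24 ± 0.22 SE (adjusted p = 0.636). Cdkn1c was 17.8 ± 1.95 CPM in male controls, 13.8 ± 2.81 CPM in sedentary pain and 15.8 ± 1.28 CPM in active pain (SD, n = 4 each), with ranges that overlapped. Its sedentary pain difference had a log2 fold change of -0.36 ± 0.15 SE (adjusted p = 0.536).

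Peg3 in male controls was 6.21, 7.69, 11.8 and 6.45 CPM, and in male active pain samples 3.45, 3.92, 5.27 and 5.94 CPM. All 4 active pain samples were below all 4 controls, as in females, with an adjusted p of 0.62 (log2 fold change -0.79 ± 0.31 SE). Igf2 was lower in both male pain groups than in controls on average, at 0.419 and 0.298 against 0.747 CPM, with overlapping ranges and log2 fold changes of -0.82 ± 0.63 and -1.32 ± 0.66 SE. Meg3, Rian and Dlk1 differed from male controls by log2 fold changes between -0.53 and 0.21, none past the threshold. In male sedentary pain samples none of the 9 macrophage markers passed the threshold in edgeR's test, while all 9 had an unadjusted p under 0.05 and DESeq2 called 5; their median log2 fold change was 2.87, and their summed CPM was 107 to 695 against 52.3 to 105 in male controls. In male active pain samples the 9 macrophage markers also all lay above 0 (median log2 fold change 2.5; summed CPM 158 to 404), with 0 called by edgeR's test, 8 at an unadjusted p under 0.05 and 3 called by DESeq2. Neutrophil markers summed to 0.664 to 5.53 CPM in male controls, 2.28 to 300 CPM in sedentary pain and 3.36 to 78.6 CPM in active pain. Lymphocyte markers summed to 0.664 to 1.02, 0.848 to 2.4 and 1.03 to 2.33 CPM in the same order. The part of these cells in the male values was not tested.

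**Figure D4:**
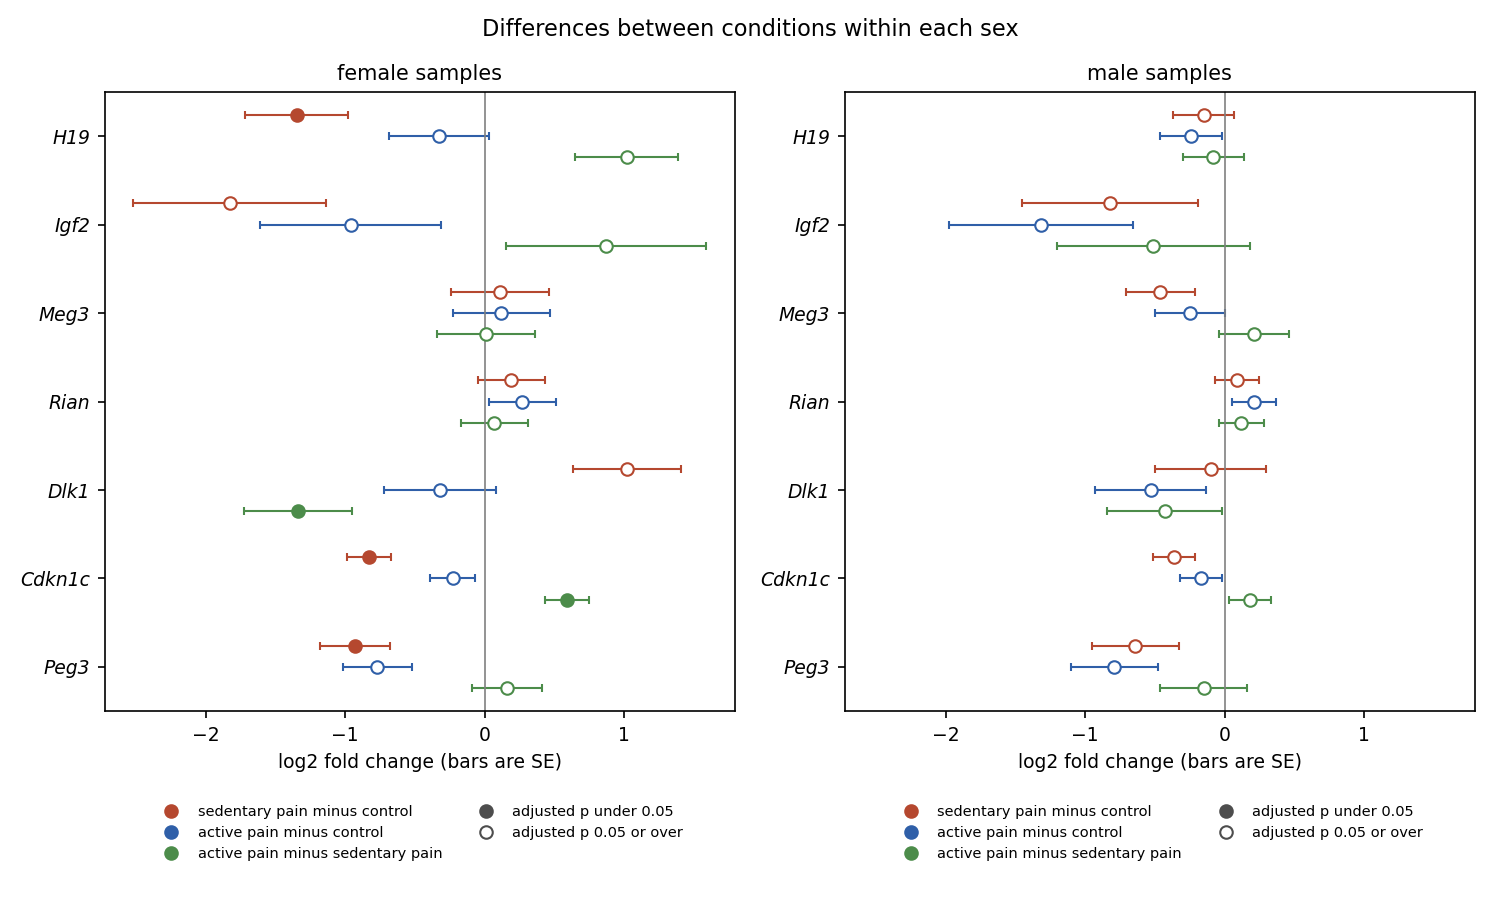
Log2 fold changes of the 7 tested genes between conditions, females left and males right: the x axis is the log2 fold change of the first group named minus the second, bars are the SE, and filled points have an adjusted p under 0.05. In females the filled points are H19, Cdkn1c and Peg3 for sedentary pain minus control and Dlk1 and Cdkn1c for active minus sedentary pain, and no male point is filled.

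H19 was lower in males than in females among controls and in active pain. Between male and female controls, 2 of 7 members were called, H19 and Rian, both lower in males, beside 2.83% of all genes called and 1.28% called lower. Every male control, at 222 to 323 CPM, was below every female control, at 619 to 1780 CPM. H19 was 3.47-fold lower in male controls (log2 fold change -1.80 ± 0.32 SE, adjusted p = 0.00238), and all 33 alternatives kept this call, with adjusted p-values of 3.32e-06 to 0.0183. Within the sets of libraries with numbers of 20 or lower and of 25 or higher, the H19 difference was -2.09 and -1.25 on the log2 scale. All 8 adipocyte markers had lower fitted levels in male than in female controls, with a median log2 fold change of -2.24; 1, Retn, was called, 6 had an unadjusted p under 0.05 and DESeq2 called 3. Their summed CPM was 246 to 672 in male and 374 to 4120 in female controls. Of 10 tested satellite cell and myoblast markers 1, Myog, was called lower in male controls (log2 fold change -0.92 ± 0.24 SE). The summed CPM of that list was 173 to 199 in male and 141 to 193 in female controls. The part of these markers in the differences was not tested.

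Rian was 8.67, 6.98, 6.52 and 7.09 CPM in female controls and 3.55, 4.3, 4.48 and 4.5 CPM in male controls. The groups did not overlap, and the male level was 1.74-fold lower (log2 fold change -0.80 ± 0.21 SE, adjusted p = 0.0374). This call held in 23 of 33 alternatives. It was lost without any single control sample of either sex (adjusted p 0.0502 to 0.149), with no low-count filter (0.0767) and with the replicate block. Meg3, which lies next to Rian on the same strand, differed by a log2 fold change of only -0.19 ± 0.31 SE with overlapping ranges. Cdkn1c was higher in every male control than in every female control with TMM scaling, while the ranges overlapped with library size alone; its adjusted p was 0.178 (log2 fold change 0.42 ± 0.15 SE). Igf2, the neighbour of H19, averaged 0.747 CPM in male and 0.749 CPM in female controls.

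In the sedentary pain groups the sexes overlapped in H19 and did not overlap in Cdkn1c; the comparisons of the sexes within the pain groups were added after the data had been seen. Here 2 of 7 members were called, Rian lower and Cdkn1c higher in males, beside 24.2% of all genes. Cdkn1c was 10.1, 13.1, 16.4 and 15.4 CPM in male and 6.92 to 8.85 CPM in female samples, without overlap (log2 fold change 0.85 ± 0.16 SE, adjusted p = 0.00193). Rian was 3.76, 4.12, 4.73 and 5.1 CPM in male and 6.78 to 12 CPM in female samples, again without overlap (log2 fold change -0.93 ± 0.21 SE, adjusted p = 0.00605). H19 ranges overlapped, at 154 to 322 CPM in males and 239 to 598 CPM in females (log2 fold change -0.64 ± 0.31 SE, adjusted p = 0.126). The H19 difference was -1.21 in the libraries with lower numbers and -0.01 in those with higher numbers. Both calls were lost when only these 2 groups were fitted, with adjusted p-values of 0.172 for Rian and 0.148 for Cdkn1c. Their log2 fold changes in that fit were -0.89 and 0.9, and it called 60 genes in all, beside 3661. Meg3 was lower in males by a log2 fold change of -0.80 ± 0.32 SE with an adjusted p of 0.0664; 4 of 33 alternatives called it, among them DESeq2.

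Mirg, at 2 to 18 counts a sample, did not pass the low-count filter, but its values did not overlap between the sexes in sedentary pain, with means of 0.165 CPM in males and 0.46 CPM in females. With no low-count filter it was called lower in males (log2 fold change -1.37, adjusted p = 0.0424). It passed the filter in 21 of the fits that left out 1 sample, but in none without female sedentary pain replicate 1, 3 or 4. It thus entered these fits through the group where it was high. Its calls in 20 of them (adjusted p of 0.0159 to 0.0675) therefore add no support for the difference. Macrophage markers differed between the sexes in sedentary pain as well, with 4 of 9 lower in males, as were 5 of 5 tested proliferation markers, 3 of 3 tested lymphocyte markers and 4 of 10 markers of fibro-adipogenic progenitors and fibroblasts. Of 7 endothelial markers 1 was higher, and of 10 tested satellite cell and myoblast markers 1 was lower, Myog (log2 fold change -2.16 ± 0.25 SE). The summed CPM of the satellite cell and myoblast list was 158 to 255 in males and 171 to 229 in females. The mitochondrial share of counts was 4.53%, 11.31%, 10.43% and 10.47% in the male samples, against 2.75% to 8.22% in the female ones. The part of these values in the differences was not tested.

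In the active pain groups H19 and Rian were again lower in males, 2 of 7 members called beside 1.44% of all genes called and 0.55% called lower. Every male H19 value, 194 to 297 CPM, was below every female one, 581 to 985 CPM. The fold was 3.26 (log2 fold change -1.70 ± 0.32 SE, adjusted p = 0.00435), and the call held in all 33 alternatives. Rian averaged 4.86 ± 0.68 CPM in males and 8.82 ± 2.47 CPM in females (SD, n = 4 each). Its ranges overlapped through female replicate 2, at 5.19 CPM (log2 fold change -0.86 ± 0.21 SE, adjusted p = 0.0337; 22 of 33 alternatives kept the call). Of the markers of other cell types and of proliferation, Myog was called in this comparison, 1 of 10 tested satellite cell and myoblast markers. It was lower in males at 3.9 ± 0.439 against 11.5 ± 0.769 CPM (log2 fold change -1.56 ± 0.24 SE). The summed CPM of that list was 170 to 195 in males and 168 to 192 in females, and the part of Myog was not tested.

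**Figure D5:**
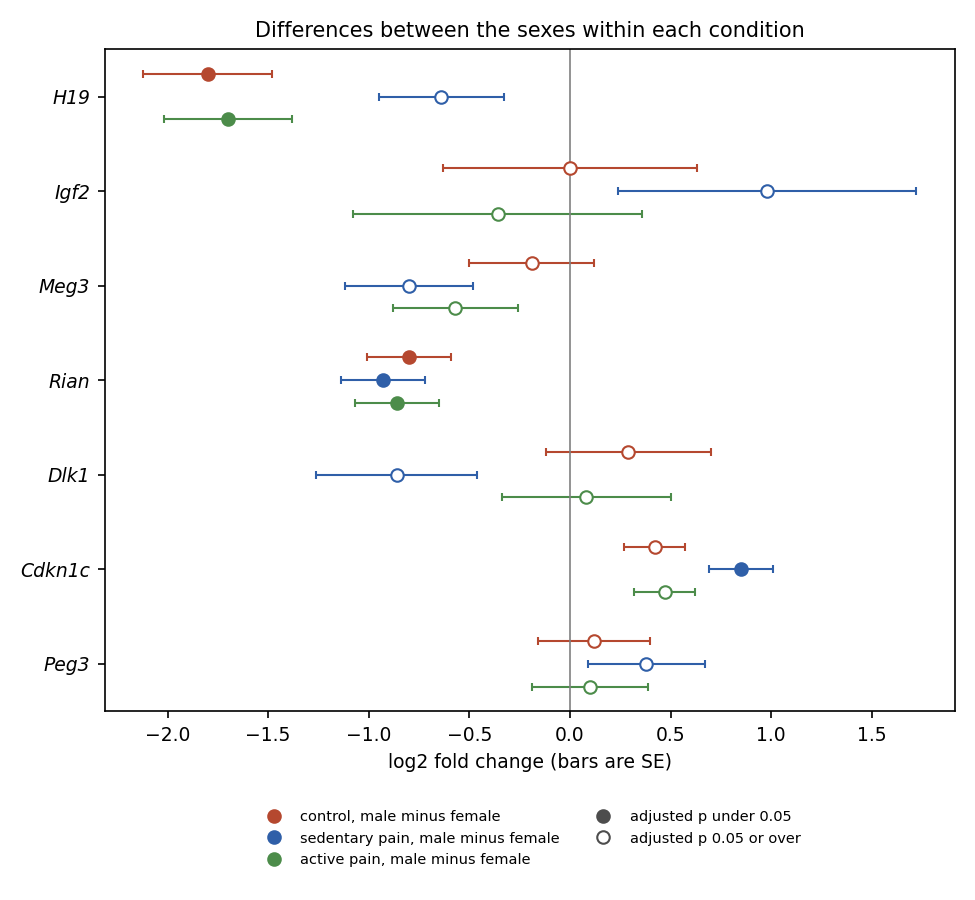
Log2 fold changes of the 7 tested genes between the sexes, male minus female, in each condition: bars are the SE and filled points have an adjusted p under 0.05. Rian lies left of 0 with filled points in all 3 conditions, H19 in controls and in active pain, and Cdkn1c lies right of 0 in all 3 with a filled point in sedentary pain.

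The order of the 6 groups by mean H19 was female control, female active pain, female sedentary pain, male control, male sedentary pain and male active pain. By median, female active pain, at 781 CPM, stood above female control, at 769 CPM. Neighbours in the order by mean overlapped in every case, while each female control and active pain sample was above each of the 12 male samples. Whether the change with pain differed between the sexes was tested as an interaction. No member passed in any of the 3 interactions, and 0.0% of all genes did in each by edgeR's test. For sedentary pain against control the change of H19 in males minus that in females was 1.16 ± 0.44 SE on the log2 scale, with an unadjusted p of 0.0161 and an adjusted p of 0.447. For active against sedentary pain it was -1.07 ± 0.44 SE (adjusted p = 0.293). H19 was the only member with an unadjusted p under 0.05 in these 2 interactions, beside 1446 and 2224 genes in all, there was none in the third beside 307 genes, and DESeq2 called 0 members in each. The count over all genes rested on single libraries: for active against sedentary pain it went from 0 to 2174 without male sedentary pain replicate 1 and to 622 without female sedentary pain replicate 1. DESeq2 called 15, 3 and 111 genes for sedentary pain against control, active pain against control and active against sedentary pain. Without these samples the adjusted p of the H19 interaction was 0.0586 and 0.0773 for active against sedentary pain, and 0.0838 and 0.115 for sedentary pain against control, where the count over all genes was 0 and 18. Other samples moved the H19 interaction the other way. Without female control replicate 1 it was 0.71 for sedentary pain against control (adjusted p = 0.637). Without female sedentary pain replicate 4 it was -0.93 for active against sedentary pain (adjusted p = 0.688). The H19 difference between female pain and control samples was thus not shown to differ from that in males.

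Among other imprinted genes, calls in sedentary females with pain were no more frequent than among all genes. Of 52 further imprinted genes on a list chosen with earlier results known, 34 were tested, 1 rose and 8 fell, or 9 of 34 beside the 33.5% of all genes called; their median log2 fold change was -0.29, beside -0.02 for all genes. Whether the genes of these lists are imprinted in muscle was not measured. In the maternally expressed list 1 of 17 tested genes rose and 5 fell. Tspan32, a tetraspanin of blood cells, went from 0.565 ± 0.287 to 5.34 ± 4.6 CPM (log2 fold change 3.20 ± 0.67 SE), Ano1, a calcium-activated chloride channel, fell by 2.32 on the log2 scale, and Gnas, which encodes a G protein alpha subunit, fell from 1020 ± 79.4 to 692 ± 152 CPM; of 23 alternatives, 1 lost the Tspan32 call, 1 that of Ano1 and 7 that of Gnas. With 1 surrogate variable the log2 fold change was 0.75 for Tspan32 and -0.13 for Gnas, against -0.57 for Gnas without it. In the paternally expressed list 3 of 17 fell, Peg13, Zrsr1 and Slc38a4, the last an amino acid transporter that went from 90.7 ± 15.7 to 52.6 ± 16.7 CPM, a call lost in 6 of 23 alternatives. With 1 surrogate variable the log2 fold changes of Peg13, Zrsr1 and Slc38a4 were -0.39, -0.44 and -0.09, beside -0.81, -1.04 and -0.80. Tspan32 was called lower again between active and sedentary females (log2 fold change -2.32 ± 0.64 SE; lost in 10 of 23 alternatives, with -0.20 under 1 surrogate variable), 1 of the 34 beside 11.9% of all genes.

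Between the control groups of the 2 sexes, 3 of 36 tested genes of the wider imprinted list were called, beside 2.83% of all genes. Grb10, a maternally expressed adaptor that restrains insulin and growth factor receptors, was lower in males at 42.0 ± 0.958 against 59.6 ± 5.34 CPM. Slc38a4 was higher in males at 224 ± 35.6 against 90.7 ± 15.7 CPM, and Osbpl5 was higher at 21.3 ± 0.494 against 16.3 ± 1.79 CPM. Of 33 alternatives, 10 lost the Grb10 call, 2 that of Slc38a4 and 9 that of Osbpl5. Grb10 and Slc38a4 were called in the same directions between the sexes in active pain, with log2 fold changes of -0.68 ± 0.12 and 1.34 ± 0.28 SE, beside 1.44% of all genes called. In sedentary pain the sexes differed in 9 of the 36, 7 higher and 2 lower in males, beside 24.2% of all genes called, so this count lies at the background.

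Of the genes of the insulin-like growth factor pathway, in which Igf2 acts, 5 of 15 tested were called in sedentary females with pain, a share like the 33.5% of all genes, so the count is no result about the pathway. Igf2bp2, which encodes a protein that binds Igf2 and other messenger RNAs, rose from 1.56 ± 0.554 to 5.74 ± 1.43 CPM (log2 fold change 1.85 ± 0.38 SE). Igfals, which encodes a carrier subunit of circulating growth factor complexes, fell from 7.16 ± 1.33 to 2.2 ± 0.708 CPM, and the insulin receptor gene Insr fell from 59.9 ± 5.37 to 32.2 ± 7.57 CPM. Stc2 and Irs2 were also called lower, but the Irs2 call was lost in 14 and the Stc2 call in 8 of 23 alternatives, against 1 for each of the other 3 genes. With 1 surrogate variable the log2 fold change of Insr went from -0.91 to -0.44 and that of Irs2 from -0.74 to -0.22. Between active and sedentary females Igfals was higher (log2 fold change 1.29 ± 0.28 SE) and Igf2bp2 lower (-1.58 ± 0.38 SE), 2 of the 15 beside 11.9% of all genes; these calls were lost in 7 and 8 of 23 alternatives. The ligand gene Igf1 and the clearance receptor gene Igf2r were not among the calls; Igf2r averaged 67.3 ± 11 CPM in female controls and 53.4 ± 11.1 CPM in sedentary pain.

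Among the other inhibitors of cyclin-dependent kinases, the relatives of Cdkn1c, 2 of 5 tested rose and 2 fell in sedentary females with pain, where 33.5% of all genes were called. Cdkn1a, an inhibitor induced by stress, rose from 32.8 ± 16.6 to 116 ± 64.6 CPM and Cdkn2d rose by 0.52 on the log2 scale, while Cdkn1b fell by 0.60 and Cdkn2c fell by 1.25 on the same scale. Of 23 alternatives each, the Cdkn1a call was lost in 2, that of Cdkn1b in 6, that of Cdkn2c in 7 and that of Cdkn2d in 12. The log2 fold change of Cdkn1a went from 1.80 to 0.76 and that of Cdkn2d from 0.52 to 0.32 with 1 surrogate variable, that of Cdkn1b to -0.39 with library size alone, and that of Cdkn2c to -0.79 without female control replicate 3. Cdkn1a was lower in active than in sedentary females with pain (log2 fold change -1.80 ± 0.47 SE; lost in 11 of 23 alternatives, with -0.99 under 1 surrogate variable), the opposite direction from Cdkn1c. Of 13 tested genes that maintain imprints and DNA methylation, 3 rose in sedentary females with pain and none fell, where 33.5% of all genes were called; DESeq2 called 6 of the 13, where it called 39.8% of all genes. The list's median log2 fold change was 0.06. Uhrf1, a factor of methylation maintenance in dividing cells, rose from 0.414 ± 0.117 to 5.95 ± 2.75 CPM, and the maintenance methyltransferase gene Dnmt1 rose from 8.35 ± 0.846 to 15.1 ± 4.53 CPM; the third was Trim28, whose call was lost in 7 of 23 alternatives. With 1 surrogate variable the log2 fold change went from 0.84 to 0.45 for Dnmt1 and from 0.56 to 0.29 for Trim28. The 6 proliferation markers summed to 1.21 to 2.27 CPM in these controls and to 6.42 to 65.5 CPM in the sedentary pain samples, and their part in these values was not tested.

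Across the 24 samples, the 5 genes most like H19 in log2 CPM among 15103 genes were Pomk and Hmgn5 (Pearson r = 0.92 each), Macrod2, Masp1 and 2310039L15Rik (0.88 each). For Igf2 they were Arl6ip6 (0.89), Ddx3x and Zfp280d (0.87 each), Kcnq5 (0.86) and Zfp74 (0.85). For Meg3 they were Acrbp (0.83), Slx1b (0.81), Hemk1 (0.80), Slc39a2 (0.76) and Pnmal2 (0.74). Within the members, r was 0.67 for H19 with Rian, 0.63 for Igf2 with Peg3, 0.60 for Meg3 with Rian and 0.41 for H19 with Igf2. These coefficients describe samples that share sex, condition and library scaling, and they rank the highest of many genes.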

How the data were processed

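RNA sequencing of the left gastrocnemius gave 1 table of raw read counts per gene for each of 24 samples. Per the labels' protocols, total RNA was made into Illumina TruSeq stranded libraries. The submitters' processing notes name HISAT2 2.1.0, Salmon 0.9.1, featureCounts and DESeq2 1.24.0, with builds mm10 and GRCm38.p6. The annotation version and the strand setting of the counting are not given in the sources used here. The deposited counts by the authors are whole numbers with no normalization, for 54532 genes, and 54409 were matched by identifier to symbols, positions and exon lengths of GENCODE M21 (GRCm38).

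Samples were grouped by their labels. Counts were scaled by TMM and given as CPM (mean ± SD), or as CPM per kb of the union of a gene's exons. Two-sided quasi-likelihood F tests of edgeR 4.0.16, with its robust option, in R 4.3.3, were fitted over all genes that passed filterByExpr with a minimum count of 10. Each sex was fitted with its 12 samples, and all 24 samples were fitted together for differences between the sexes and interactions. Adjusted p-values (Benjamini-Hochberg) cover all genes tested, at a threshold of 0.05. Fold changes carry the standard error of the fit. The fits were tested on simulated data.

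The members, the gene lists and the markers were chosen with earlier results of these data known. All members are named, with up to 4 rising and 4 falling calls of each other list per comparison, smallest p first, and the 5 genes with the highest Pearson r of log2 CPM (prior count 2) for H19, Igf2 and Meg3. The comparisons of the sexes within the pain groups were chosen after seeing the data. The library names carry a number, at most 20 for replicates 1 and 2 and at least 25 for the other 2; what it stands for is not given in the sources used here.

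Alternatives were RLE scaling, library size alone, DESeq2 1.42.0, no robust step, no low-count filter, a mean of at least 50 counts, the replicate block, a covariate for the library number, only the groups compared, a single fit of all 24 samples, 1 surrogate variable (sva 3.50.0) and leaving out each sample. Sequences came from RefSeq tables (GRCm38.p6). Tables and figures were made in Python 3.11.15 with pandas 2.3.3 and matplotlib 3.10.9.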

Additional observations from a re-analysis of the deposited data

Results flagged for a closer look

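In 3 of the 48 sets of 4 CPM values (8 genes in 6 groups), 1 sample stood so far from the other 3 that its gap to the nearest of them, divided by the whole range, was above Dixon's critical value for 4 samples. Chance gives such a sample in about 1 in 20 sets, so 3 of 48 is near that share. Meg3 was 6.28 CPM in male active pain replicate 2 and 3.25 to 3.4 CPM in the other 3 samples, and this library also had the highest TMM factor of the males, 1.2. Rian was 12 CPM in female sedentary pain replicate 1 and 6.78 to 7.59 CPM in the others. Dlk1 was 1.73 CPM in male control replicate 3 and 0.979 to 1.07 CPM in the others.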

How the results depend on the processing

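For members, sedentary pain against control in females gave 5 calls with DESeq2 and 0 with 1 surrogate variable, beside 3. Over all genes these settings called 5773 and 109, beside 4867. Active against sedentary pain in females (2 calls) gave 1 with library size alone and with a mean of at least 50 counts, and 0 with no low-count filter, 1 surrogate variable or only the groups compared. The counts over all genes were 2385, 1631, 174, 0 and 0 in that order, beside 1730. Between male and female controls (2) it gave 1 with no low-count filter and 1 with the replicate block, where 326 and 337 genes were called in all, beside 427. Between the sexes in sedentary pain (2) it gave 0 with only the groups compared, and in active pain (2) 1 with library size alone, no low-count filter, only the groups compared or the replicate block. All genes called in sedentary pain went from 3661 to 60 with that setting. In active pain they were 231, 182, 154 and 208 in that order, beside 217. For the other imprinted genes, sedentary pain against control in females (9) gave 0 with 1 surrogate variable and 4 with only the groups compared, and active pain against control (0) gave 1 with DESeq2. Genes called in all were 109 and 2847, beside 4867, in the first comparison and 124, beside 0, in the second. Active against sedentary pain in females (1) gave 3 with library size alone or all 24 samples in 1 fit, 4 with DESeq2 or the library-number covariate, 2 with the replicate block, and 0 with no low-count filter, 1 surrogate variable or only the groups compared. These settings called 2385, 2378, 3010, 2745, 1629, 174, 0 and 0 genes in all, in that order, beside 1730. Between the sexes, controls (3) gave 1 with no low-count filter, sedentary pain (9) gave 5 with the replicate block and 0 with only the groups compared, and active pain (2) gave 0 with only the groups compared. In that order 326, 2299, 60 and 154 genes were called in all. The cause of these shifts was not tested, beyond the fewer samples with only the groups compared. Leaving out 1 sample at a time, the member counts ranged from 1 to 5 (female sedentary pain against control, lowest without female sedentary pain replicate 4), 0 to 3 (female active against sedentary pain), 1 to 2 (male against female controls), 2 to 4 (sedentary pain) and 1 to 2 (active pain). Those of the other imprinted genes ranged from 3 to 10 (lowest without female control replicate 4), 0 to 7, 0 to 3, 2 to 17 (lowest without female sedentary pain replicate 4) and 1 to 2 in the same order, and from 0 to 3 in the interaction of active against sedentary pain; all other counts were 0 throughout. The genes called in all, which the member counts are set against, ranged with 1 sample left out from 2486 (without female sedentary pain replicate 4) to 6674 (without replicate 1), beside 4867, for female sedentary pain against control, and from 718 (without female sedentary pain replicate 4) to 8311 (without male sedentary pain replicate 1), beside 3661, between the sexes in sedentary pain. The replicate numbers were not taken to pair samples, since the residuals of same-numbered samples correlated at 0.109 on average in females (6 of 12 pairs over 0.1) and at 0.0132 in males (4 of 12); the replicate block left 3 members called for sedentary pain against control in females, and with it the adjusted p of Rian between the sexes was 0.0579 in controls and 0.0528 in active pain. Scaling to library size alone moved the median of all genes from 0.01 to -0.19 between active and sedentary females, where the share of calls that were higher went from 21% to 5.03%, and between the sexes in sedentary pain that share went from 43.9% to 22.7%. No called fold change of a member or of a named gene of the imprinted, growth factor, inhibitor and methylation lists changed sign under an alternative; marker genes were not compared across alternatives. Igf2, Mirg and Dlk1 had 1 to 71 counts a sample, which limits what could be detected for them.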
